A study of Mus musculus with 4 samples.

Results

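Radial glia-like cells (RGLs), the neural stem cells of the adult dentate gyrus, were compared over the weeks that follow induction of a nuclear label. Their nuclei are those that the authors' deposited table places in its RGL cluster, which makes 1387 of 14367 nuclei: 486 of 2867 at week 1 (w1), 461 of 4243 at w2, 357 of 3831 at w4, and at w8 83 of 3426. RGLs are glia with long processes that express astrocyte-type genes and rest outside the cell cycle for most of the time. Notch and BMP signalling are known to hold them in this quiescent state, the EGF receptor belongs to their activation, and on division they give rise to neuronal progenitors or to astrocytes.

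All libraries came from mice of both sexes that carried a tamoxifen-inducible Cre and the CAGfloxStopSun1sfGFP reporter, on a C57BL/6J background and 6 to 8 weeks of age, which had received tamoxifen, and single-nucleus RNA-seq was made 1, 2, 4 or 8 weeks later on sorted Sun1/sfGFP-positive nuclei of the left dentate gyrus. Only cells in which Cre was active at the time of tamoxifen, and their descendants, carry the label, so these nuclei are a labelled subset of RGLs. Each week is 1 library from pooled dentate gyri, and 2 time points were processed per day without record here of which. No test between weeks is therefore possible: the intervals given cover counting error only, and the time since tamoxifen cannot be told apart from the age of the mice, the animals of a pool or the preparation.

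Levels are UMIs of a gene per 1e6 UMIs of the RGL nuclei of the same week, written as CPM. The sums behind them were 2299365, 2128603, 1358325 and 313734 UMIs for w1 to w8, so that 1 UMI was worth 0.435 CPM in w1 and 3.19 CPM in w8. The median nucleus held 4450, 4466, 3555 and 3611 UMIs. No barcode of an RGL nucleus occurred in the RGL nuclei of another library. The sex of a nucleus was called from Y-linked genes against Xist and Tsix, and this make-up moved with the week. Male calls numbered 315, 277, 35 and 65 over the 4 libraries, and female calls 127, 145, 314 and 10. The w4 library thus held mostly female RGLs and the w8 library mostly male ones, as the plot of RGL nuclei by sex call shows, and values within one sex are given beside several results below.

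**Figure D1:**
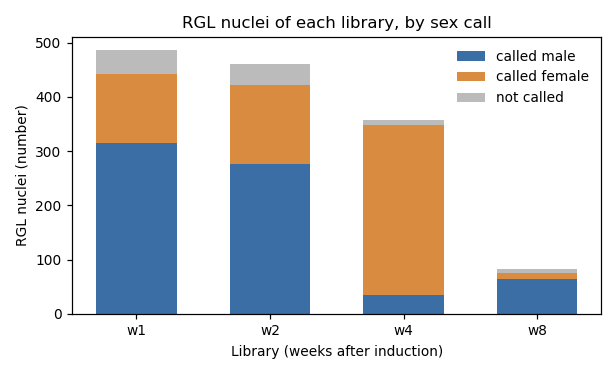
Number of RGL nuclei in each library (x axis, weeks after induction), with the bars split by the sex call of the nucleus (male, female or not called). The bars shrink from 486 nuclei in w1 to 83 in w8, and the female part is the larger one in w4 only.

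The cluster name was checked against its markers. All 16 RGL markers listed for this work, among them Hopx, Lpar1, Thrsp, Notch2 and Tfap2c, passed the minimum level of 20 CPM in the mean of the 4 weeks, and together they made 9188, 8156, 8325 and 8185 CPM in RGL nuclei of w1, w2, w4 and w8. In all other nuclei of the same libraries their sum was 890, 361, 160 and 146 CPM. The glial classes among them held more. Their sum was 4620, 4840 and 4292 CPM in the astrocyte cluster of w1, w2 and w4. In oligodendrocyte precursor cells of w1, w2, w4 and w8 it was 2416, 2287, 2154 and 2751 CPM. Slc1a3 alone, given further on, made most of the RGL sum in each week. The defining astrocyte marker Grin2c, a glutamate receptor subunit, stood at 3.91, 1.88, 2.21 and 3.19 CPM in RGL nuclei and at 429, 249 and 206 CPM in the astrocyte cluster of w1, w2 and w4, while w8 had no nucleus in that cluster. Other astrocyte markers were higher in RGLs of w8 than before, among them Aqp4 (11.7, 16.4, 22.1 and 44.6 CPM) and Htra1 (114, 98.2, 84.7 and 233 CPM), as described further on. The sample labels name the cell type as granule cells, and 13 markers of mature granule cells summed to 1406, 1335, 1633 and 1766 CPM in RGL nuclei against 2828, 3996, 18128 and 24539 CPM in the other nuclei.

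The first question was which genes moved in one direction over all 4 weeks. A gene was counted as rising where its level was ordered w1 < w2 < w4 < w8 and w8 was at least 1.5 times w1, and as falling in the reverse case. Of 7205 genes with a mean of at least 20 CPM, 159 rose (2.21%) and 150 fell (2.08%), and the median log2 ratio of w8 to w1 over all of them was -0.02. Scaled with edgeR's TMM factors in place of UMI totals the split was 143 rises and 224 falls, and with DESeq2 size factors 161 and 204. When nuclei were thinned to 2000 UMIs each, only 53 of the 159 rises and 55 of the 150 falls met the rule again. Subtraction of RNA of the other nuclei gave 778 rises and 39 falls, of which 117 and 37 were among those above. It took its share from granule cell markers, 27.7% in w1 (7 markers) and 5.65% in w8 (12 markers), and so lowered w1 most by construction, while neuroblast markers gave a share that went from 6.17% to 11.4%. That w1 share was too large for such RNA as a whole, since RGLs of w1 held only 1.40% of the Fam155a level of the other nuclei. With any fold, 315 genes were ordered upward (4.37%) and 302 downward (4.19%). If the 4 weeks of each gene stood in random order, about as large a share of genes would meet either order. These shares are therefore no evidence of trends. In the oligodendrocyte precursor cells (OPCs) of the same libraries, 131 nuclei in all, the same rule over the same genes gave 169 rises (2.35%) and 225 falls (3.12%). Ordered genes were thus no more frequent in RGLs than in OPCs. The genes were chosen by their RGL level, however, and 1 UMI was worth 4.87 to 7.67 CPM in OPCs. Counting error alone passes the fold more easily there, so this comparison cannot tell whether RGLs hold trends. Counting error was also part of the 159 rises and 150 falls of RGLs: only 38 of the rises and 38 of the falls (0.527% each) had exact Poisson intervals in w1 and w8 that lay apart. The genes described next are the largest of these with at least 20 UMIs in at least 10 nuclei in the higher of the 2 weeks.

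The rises with a higher level in RGLs than in the other nuclei of w8 were led by Wls (chr3:159839672-159938664 of GRCm38), which encodes Wntless, the carrier that brings Wnt proteins to the cell surface. Wls measured 27.8, 31.9, 45.6 and 92.4 CPM in w1, w2, w4 and w8, a 3.32-fold rise (2.06 to 5.23, exact 95% interval of the ratio). Its w8 level came from 29 UMIs in 18 of 83 nuclei, and in the other nuclei as a whole Wls went the other way, from 9.79 to 1.45 CPM. The glial classes among them did not. OPCs measured 23.0, 63.2, 43.8 and 78.0 CPM in w1, w2, w4 and w8, on 3, 13, 7 and 14 UMIs. Astrocytes measured 15.3, 35.6 and 86.7 CPM in w1, w2 and w4, on 2, 4 and 8 UMIs. In male nuclei alone it stood at 26.3, 29.4 and 97.6 CPM in w1, w2 and w8.

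Fggy, a gene of the carbohydrate kinase family (chr4:95557507-95926939), measured 102, 110, 113 and 226 CPM, a 2.21-fold rise (1.67 to 2.90) that lay almost wholly between w4 and w8. Spef2, which encodes a protein of motile cilia and flagella (chr15:9578193-9748868), measured 32.2, 40.4, 41.2 and 79.7 CPM, and no UMI of it was found in OPCs of any week. Its ratio of w8 to w1 was 2.48 (1.51 to 3.94). Both genes showed the same shape: 3 early weeks close together and a step at w8.

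Dlg5, a scaffold protein of cell polarity (chr14:24133953-24245920), measured 91.3, 92.5, 119 and 159 CPM, a 1.75-fold rise (1.26 to 2.39). OPCs fell short of 30 CPM of Dlg5 in every week, while the astrocyte cluster held 138, 97.9 and 97.5 CPM in w1, w2 and w4. Aig1 measured 137, 138, 157 and 271 CPM (1.97-fold, 1.53 to 2.51). Tprkb, a subunit of the tRNA-modifying KEOPS complex, went up earlier, with 47.4, 77.5, 83.9 and 108 CPM (2.29-fold, 1.51 to 3.39), and stood at 636, 658 and 358 CPM in the astrocyte cluster of w1, w2 and w4. The other rises of this kind were Frmpd1, Marc2, Saraf, Setd8, D330023K18Rik and Ssu72, with ratios between 1.99 and 2.80 and w8 levels of 63.7 to 79.7 CPM, each from 20 to 25 UMIs. Of these Frmpd1 and Ssu72 were higher in the astrocyte cluster than in RGLs in each of w1, w2 and w4, with 306, 222 and 130 CPM and with 69.0, 80.1 and 97.5 CPM.

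A second set of rises belonged to genes with a higher level in the other nuclei than in RGLs. Grik4, a kainate receptor subunit (chr9:42518135-42944493), measured 51.3, 84.1, 89.1 and 156 CPM in RGLs, a 3.04-fold rise (2.14 to 4.28). The other nuclei held 593, 640, 383 and 316 CPM of it, so their level moved down while that of RGLs moved up, and OPCs held 483, 443, 451 and 501 CPM. Fam155a, a subunit of the sodium leak channel, measured 25.7, 40.9, 71.4 and 89.2 CPM in RGLs against 1835, 2369, 2492 and 3127 CPM elsewhere. Ptprd, a receptor phosphatase of synapses, measured 55.2, 80.8, 127 and 147 CPM against 1070, 2738, 5267 and 5376 CPM in the other nuclei and 730 to 821 CPM in OPCs, and Wasf1, a regulator of actin branching, rose from 36.5 to 79.7 CPM against 72.5 to 350 CPM. For Fam155a, Ptprd and Wasf1 the order of the weeks was the same in the other nuclei, so that a change in RGLs cannot be told apart from RNA of those nuclei by its order alone. As a percentage of the level in the other nuclei, RGLs held 1.40%, 1.73%, 2.87% and 2.85% of Fam155a, 5.16%, 2.95%, 2.42% and 2.73% of Ptprd and 8.66%, 13.1%, 23.3% and 49.5% of Grik4. For Wasf1 they held 50.4%, 44.1%, 18.7% and 22.8%, and its order was upward in OPCs too (84.4, 92.4, 93.9 and 100 CPM).

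The largest fall with many molecules was that of Srpk1, the kinase that phosphorylates SR splicing factors (chr17:28587648-28622709). It measured 357, 290, 156 and 60.6 CPM, 5.90-fold lower in w8 than in w1 (3.75 to 9.84). After each nucleus was thinned to 2000 UMIs, 49.7% of 471 nuclei of w1 held an Srpk1 UMI (45.1 to 54.3%), and 46.4%, 29.4% and 8.43% did in w2, w4 and w8 (3.46 to 16.6% in w8). Without thinning 19 of 83 nuclei held one in w8. Both sexes showed it, with 348, 280 and 65.1 CPM in male nuclei of w1, w2 and w8 and 361, 302 and 156 CPM in female nuclei of w1, w2 and w4. The fall was shared by other cells: all other nuclei held 234, 217, 134 and 68.0 CPM and OPCs 146, 156, 113 and 61.3 CPM, so it was not particular to RGLs. Srsf6, itself an SR splicing factor, fell from 86.5 through 66.7 and 53.0 to 31.9 CPM, on 10 UMIs in w8. It was lower in the later weeks of the other nuclei as well, with 54.8, 30.4, 19.0 and 22.1 CPM.

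Kcnip1, a partner of A-type potassium channels (chr11:33629339-33993152), fell from 418 through 372 and 194 to 156 CPM, 2.68-fold (2.01 to 3.65). Here OPCs, which hold the gene at a like level, stayed at 383, 394, 438 and 390 CPM, and the other nuclei as a whole held under 17 CPM. Male nuclei stood at 382, 348 and 150 CPM in w1, w2 and w8 and female nuclei at 556, 412 and 182 CPM in w1, w2 and w4. The fall of Kcnip1 was thus seen within each sex and was not accompanied by a fall in OPCs, although the difference between RGLs and OPCs could not be tested with 1 library a week.

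Asic2, an acid-sensing ion channel (chr11:80880169-81968457), measured 98.3, 82.7, 64.0 and 12.7 CPM, and the last value was 4 UMIs in 4 nuclei. In female nuclei its weeks were not in order (70.6, 139 and 48.4 CPM in w1, w2 and w4). Veph1, named for its expression in the ventricular zone (chr3:66053558-66296837), measured 80.5, 56.8, 50.1 and 25.5 CPM (3.16-fold lower, 1.57 to 7.42), and Csad, an enzyme of taurine synthesis (chr15:102176999-102204724), measured 52.6, 44.6, 39.8 and 15.9 CPM. The potassium channel gene Kcnh7 fell from 80.5 to 25.5 CPM, with 4 of its 8 UMIs of w8 in 1 nucleus, and in the other nuclei it fell from 1874 to 382 CPM. Tipin and Tbc1d31, which serve the replication fork and centriolar satellites, stayed between 39.8 and 47.0 CPM for 3 weeks and stood at 12.7 and 15.9 CPM in w8, on 4 and 5 UMIs. In the other nuclei Tipin also fell in order, from 40.5 to 19.0 CPM, and Tbc1d31 went from 58.1 to 19.1 CPM. Zfyve27 and Zfp961 had the same shape, on 2 and 7 UMIs in w8, and went from 50.7 to 29.4 CPM and from 61.3 to 43.9 CPM in the other nuclei. Among all 38 falls that met the rule for named genes, 12 had the same order in the other nuclei, as did 6 of 24 rises. How many of all genes had such an order in the other nuclei was not counted. These numbers therefore show neither an excess nor a lack of shared order. Of the non-coding or predicted genes Gm12394, Gm15478, Gm10308 and Gm26672, the first had most molecules and fell from 105 to 28.7 CPM, while in the other nuclei it rose. Gm15478 is annotated as antisense, and whether counting used strand is not given in the sources used here.

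**Figure D2:**
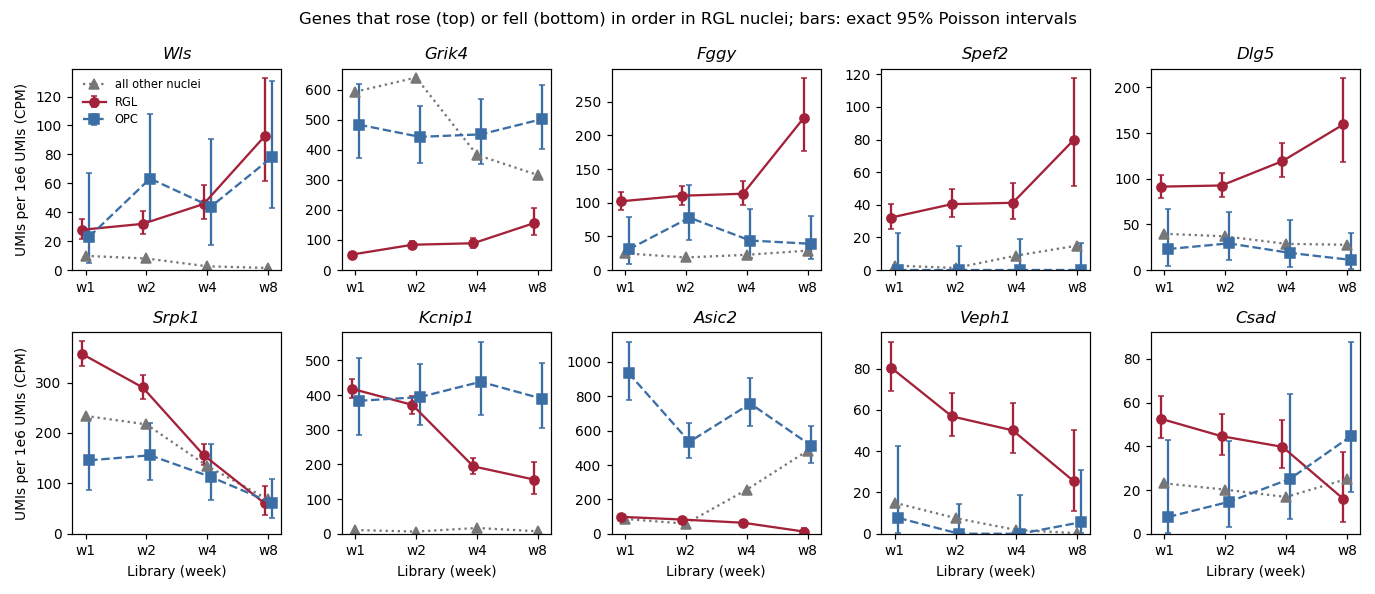
Level (y axis, UMIs per 1e6 UMIs) of 5 genes that rose and 5 that fell in order over the 4 libraries (x axis), in RGL nuclei, OPC nuclei and all other nuclei, with exact 95% Poisson intervals for the first 2. RGLs drop from 357 to 60.6 CPM for Srpk1, as the other curves of that panel also do, whereas for Kcnip1 the OPC curve stays between 383 and 438 CPM.

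These trends lean on w8 and differ in how they hold within a sex. Over w1, w2 and w4 alone, 9 of the 16 named rises and 9 of the 15 named falls still reached 1.5-fold. In male nuclei of w1, w2 and w8, 15 of 16 and 13 of 15 kept their order, and in female nuclei of w1, w2 and w4, 7 of 16 and 12 of 15 did. An order of 3 weeks is easier to meet than one of 4. Over all 4 weeks 7 of 16 and 6 of 15 kept it in male nuclei, of which w4 holds 35. In female nuclei, of which w8 holds 10, 3 of 16 and 8 of 15 did. With nuclei thinned to 2000 UMIs, 10 of 16 and 11 of 15 kept the order of the 4 weeks. The direction itself turned in the female nuclei of w1, w2 and w4 for 3 genes. Wasf1 measured 55.1, 41.2 and 46.8 CPM in them, Setd8 44.7, 39.7 and 41.8 CPM and Tipin 36.1, 45.8 and 39.3 CPM. All of these series reuse nuclei from which the genes were chosen, so the counts describe the values and are no independent check.

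Among the RGL markers, none fell in order by 1.5-fold and 1 of 16 rose, beside 2.21% of all genes. Etv4, a transcription factor downstream of FGF signalling, measured 56.5, 65.8, 69.2 and 86.1 CPM (1.52-fold, 0.966 to 2.32, an interval that includes no change). The intervals of w1 and w8 lay apart for 5 of the 16 markers, higher in w8 for 1 and lower for 4, where all genes gave 3.26% and 3.04%. Intervals lie apart at smaller differences for genes with many UMIs. The share over all genes, here and for the lists below, was not matched for level and is only a rough background. The higher one was Thrsp, a regulator of lipid synthesis, with 401, 544, 606 and 586 CPM. Thrsp had reached its level by w4 and showed the same course in both sexes, 432, 594 and 643 CPM in male nuclei of w1, w2 and w8 and 325, 485 and 590 CPM in female nuclei of w1, w2 and w4.

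The 4 lower ones were Sox9, Hes5, Notch2 and Slc1a3. Sox9, a transcription factor of glia and stem cells, measured 143, 153, 125 and 51.0 CPM. Notch2, a Notch receptor, measured 1028, 984, 1090 and 711 CPM, a w8 level 1.45-fold below w1 (1.26 to 1.67) from 223 UMIs in 75 of 83 nuclei. For Sox9 and Notch2 the 3 earlier weeks lay together and w8 alone was low. Slc1a3, the glutamate transporter GLAST, differed by little, with 5293, 4435, 4477 and 4749 CPM.

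The remaining RGL markers had intervals that overlapped between w1 and w8. Hopx measured 295, 329, 316 and 245 CPM, Lpar1 196, 137, 159 and 134 CPM, Tfap2c 51.8, 63.4, 36.8 and 25.5 CPM and Gli1 39.1, 46.5, 40.5 and 22.3 CPM. Sox5 stood at 1095, 768, 864 and 1010 CPM, Id4 at 241, 200, 157 and 220 CPM and Etv5 at 44.8, 61.1, 57.4 and 38.2 CPM. Gfap measured 87.9, 118, 157 and 108 CPM, Emx2 84.8, 109, 97.9 and 108 CPM and Fabp7 36.5, 31.0, 28.7 and 51.0 CPM. Of the wider list of 24 stem cell identity genes, 20 passed the minimum level, none rose or fell in order by 1.5-fold, and the median log2 ratio was -0.14 beside -0.02 for all genes. Padi2, a peptidylarginine deiminase, was the largest difference upward in that list, with 109, 157, 154 and 210 CPM.

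Some genes of astrocyte maturation had higher levels in w8, though not as an ordered trend. Of 12 astrocyte markers, 7 passed the minimum level, all 7 had a higher level in w8 than in w1, with a median log2 ratio of 0.43, and for 4 of them the intervals lay apart, where 3.26% of all genes were higher in this way. The direction came with w8: over w4 and w1 the median was -0.22, and in female nuclei of w4 and w1 it was -0.36. Markers of mature granule cells moved by as much in the same nuclei, with 4 of 7 higher in w8 with intervals apart and a median log2 ratio of 0.46. Only Aqp4, the water channel of astrocytes, rose in order: 11.7, 16.4, 22.1 and 44.6 CPM, with 14 UMIs in 8 nuclei in w8. Glul, glutamine synthetase (chr1:153899944-153909723), measured 125, 127, 112 and 245 CPM, and Htra1, a secreted protease (chr7:130936111-130985660), 114, 98.2, 84.7 and 233 CPM. Slc1a2, the glutamate transporter GLT-1, measured 3681, 3118, 3018 and 4539 CPM. In all 3 the first 3 weeks were level or sank slightly, and w8 stood above each of them.

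Slc6a11, a GABA transporter, measured 152, 131, 118 and 204 CPM, and Aldh1l1 and Slc7a10 lay between 27.2 and 52.6 CPM with no common course. The 5 markers under the minimum were Grin2c, given above, and Gjb6, S100b, Kcnj16 and Agt. Gjb6, connexin 30, lay between 9.87 and 12.2 CPM in RGLs of w1 to w4 and at 25.5 CPM in w8, against 192, 80.1 and 141 CPM in astrocytes of w1, w2 and w4, S100b reached 19.3 CPM at most, and Kcnj16 and Agt stayed under 10 CPM. Among the 32 genes of the astrocyte maturation list, 25 were considered, and 1 rose and none fell by the rule, beside 2.21% and 2.08% of all genes. A higher w8 level with intervals apart was found for 8 and a lower one for 1, where all genes gave 3.26% and 3.04%. Its median log2 ratio was 0.20 for w8 and -0.14 for w4, each against w1. Among them was Slc4a4, a sodium bicarbonate cotransporter (chr5:88886818-89239653), with 208, 153, 167 and 602 CPM, in 45 of 83 nuclei of w8.

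For Slc4a4, Glul and Htra1 the w8 level was spread over many nuclei. At 2000 UMIs per nucleus, which left out 15 shallower RGL nuclei of w1 and none of the later weeks, 44.6% of RGL nuclei of w8 held an Slc4a4 UMI (33.7 to 55.9%) and 17.4% to 20.4% in the 3 earlier weeks. For Glul these shares were 15.9%, 21.0%, 17.4% and 36.1%, and for Htra1 18.3%, 17.1%, 15.4% and 30.1%. The 11 astrocyte markers other than Slc1a2 gave a mean of 0.936, 1.03, 0.880 and 1.70 UMIs per thinned RGL nucleus. The lower quartile of the astrocyte cluster for these 11 was 3 UMIs, and 8.70%, 9.33%, 8.96% and 27.7% of RGL nuclei reached it (18.4 to 38.6% in w8). With Slc1a2 included it was 15 UMIs, which 59 of 471 nuclei of w1 reached (9.67 to 15.9%), 5.64% of w2, 3.64% of w4 and 15.7% of w8 (8.61 to 25.3%), so that w8 overlapped with w1. OPCs held 0.520, 0.667, 0.371 and 0.686 UMIs of the 11 markers in the same weeks. Htra1 stepped up in OPCs as well, from 38.3, 73.0 and 56.4 CPM to 139 CPM in w8, whereas Glul stayed under 25 CPM there and Slc4a4 at 107, 126, 113 and 94.7 CPM. The astrocyte maturation list summed to 15756, 14099, 14890 and 18219 CPM in RGLs and to 7830, 6991, 7213 and 8561 CPM in OPCs, with w8 highest in both. Males of w8 showed the difference against males of w1 and w2, with 586 against 229 and 184 CPM for Slc4a4 and 272 against 128 and 107 CPM for Glul. The w8 library had no nucleus in the astrocyte cluster, so whether cells that were placed there in earlier weeks were placed among the RGLs in w8 was not tested. Of the 12 astrocyte markers, 8 were higher in RGLs of w8 than of w1 and 4 lower (Grin2c, S100b, Kcnj16 and Agt, all under the minimum level), and their sum was 4177, 3625, 3448 and 5374 CPM.

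**Figure D3:**
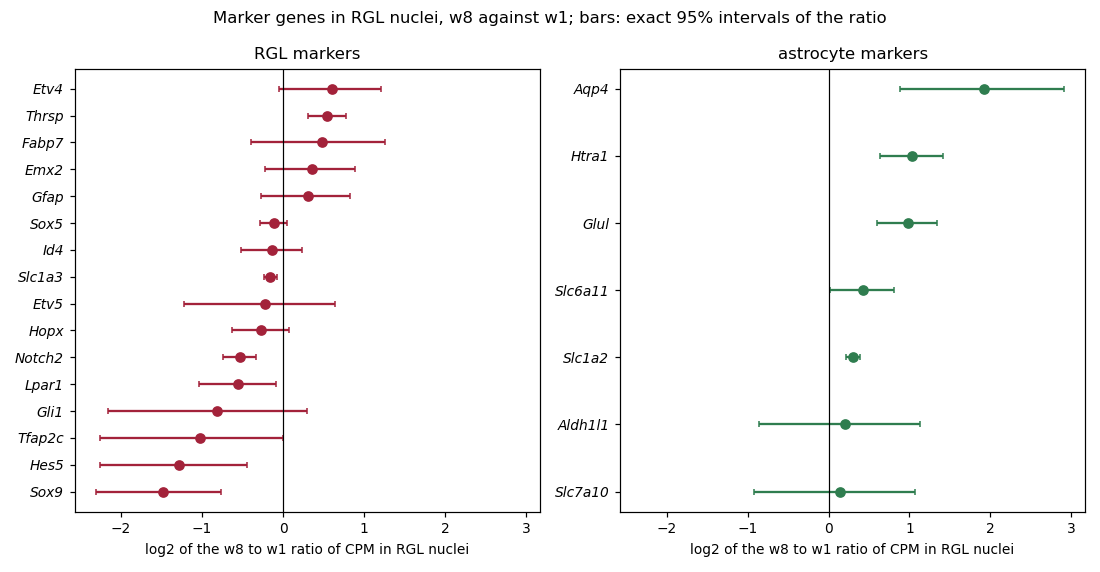
log2 of the ratio of the w8 to the w1 level in RGL nuclei (x axis) for the 16 RGL markers and the 7 astrocyte markers over the minimum level, with exact 95% intervals of the ratio. The astrocyte markers all lie to the right of 0, from Slc7a10 to Aqp4, while the RGL markers lie on both sides, from Sox9 at -1.49 to Etv4 at 0.61.

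Signals that RGLs receive were followed by pathway. Of 25 Notch genes, 14 were considered and none rose or fell by the rule, with a median log2 ratio of -0.13. Besides Notch2, the receptor Notch1 (137, 156, 171 and 82.9 CPM) and the target Hes5 (93.1, 111, 44.2 and 38.2 CPM) were lower in w8 with intervals apart. That made 3 of the 14 lower and 0 higher, where all genes gave 3.04% and 3.26%. The ligand Jag1 measured 43.5, 71.9, 70.7 and 15.9 CPM, with 5 UMIs in w8. The summed level of the list was 2434, 2458, 2505 and 2014 CPM in RGLs and 1319, 1484, 1440 and 1509 CPM in OPCs. The nuclear partner Rbpj, at 77.4, 102, 95.7 and 70.1 CPM, and the coactivators Maml2 and Maml3 had overlapping intervals.

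Among growth factor receptors and Sprouty genes, 18 of 29 were considered, 2 rose and none fell, where 2.21% and 2.08% of all genes did. Etv4 is one of the 2, and the other was Erbb4, a neuregulin receptor, with 36.1, 61.5, 67.7 and 82.9 CPM, of which 26 UMIs in w8 lay in 9 nuclei and which stood at 3303 to 4458 CPM in OPCs. The EGF receptor gene Egfr (chr11:16752203-16918158) measured 414, 378, 274 and 280 CPM, lower in w8 with intervals apart. Of the 18 genes, 1 was higher and 2 were lower in this way, where all genes gave 3.26% and 3.04%. Male nuclei held 334, 252 and 313 CPM in w1, w2 and w8. Female nuclei held 664 and 650 CPM in w1 and w2, above the male level of the same libraries with intervals apart, and 242 CPM in w4. The 2 series share only w1 and w2, so their later courses cannot be compared. Each sex is a few animals of a pool, so sex cannot be told apart from animal. Igf1r was highest in w1, with 634, 388, 404 and 456 CPM.

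Of 28 BMP and TGF-beta genes, 16 were considered and 1 rose, beside 2.21% of all genes: Tgfbr2, the TGF-beta type II receptor, went from 34.8 through 43.2 and 45.6 to 57.4 CPM, with w1 and w8 intervals that overlapped. Acvr1, a BMP type I receptor, was lower in w8 (62.6, 50.7, 65.5 and 19.1 CPM, 6 UMIs in w8). Of 35 Wnt genes, 20 were considered and 1 fell, beside 2.08% of all genes: Axin2, a feedback target of the pathway, with 27.4, 22.6, 19.9 and 12.7 CPM, on 4 UMIs in w8 and with intervals that overlapped. The Wnt inhibitor Sfrp1 (37.8, 39.5, 25.8 and 6.37 CPM) and the coreceptor Lrp5 (46.5, 55.0, 30.2 and 12.7 CPM) had intervals apart, on 2 and 4 UMIs in w8. Of 13 Hedgehog genes, 10 were considered and none moved in order by 1.5-fold. The Hedgehog coreceptor Cdon measured 209, 157, 198 and 124 CPM and Gas1 38.7, 47.9, 25.8 and 9.56 CPM, both with intervals apart, whereas the receptor Ptch1 (356, 356, 269 and 284 CPM) and the effectors Gli2 and Gli3 overlapped. The median log2 ratios of the 3 lists were -0.02, -0.07 and -0.20. With intervals apart, 1, 2 and 2 of their genes were lower in w8 and 0 higher, where all genes gave 3.04% and 3.26%.

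Of 42 genes of activation and the cell cycle, 41 were found by symbol and 9 passed the minimum level, none of which fell in order by 1.5-fold. All 9 had a lower level in w8 than in w1, where 3769 of all 7205 genes did, with a median log2 ratio of -0.60, and for 3 of them the intervals lay apart (3.04% of all genes). The whole list summed to 1480, 1293, 1202 and 924 CPM in RGLs and went down more in the other nuclei, with 1183, 763, 404 and 309 CPM. Ccnd2, a G1 cyclin, measured 167, 205, 188 and 79.7 CPM and Cdk6, its kinase partner, 242, 221, 267 and 159 CPM.

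The genes of S phase to mitosis were sparse. Summed over 33 such genes their level was 585 CPM in w1 (554 to 617) and 375, 383 and 367 CPM in w2, w4 and w8, so w1 stood above the later weeks. Nuclei with 10 or more of these UMIs, a limit chosen after the values were seen, numbered 22, 4, 3 and 0 from w1 to w8, and without them the levels were 337, 345, 356 and 367 CPM. The share of nuclei with any such UMI stayed level. At 2000 UMIs per nucleus, 45.9%, 48.8%, 47.6% and 48.2% of RGL nuclei held at least 1 UMI of these genes (37.1 to 59.4% in w8). In oligodendrocytes, which do not divide, 31.1% of 45 nuclei did over all weeks (18.2 to 46.6%, median depth 4801 UMIs against 4119 in RGLs), and in progenitors (NPCs) of w1 94.4% did. With at least 2 UMIs the RGL shares were 20.0%, 18.2%, 17.4% and 18.1%. Without thinning they were 73.5%, 72.2%, 68.3% and 62.7% for 1 UMI or more. The share in oligodendrocytes sets a background for such sparse genes, and the RGL shares give no count of cycling cells.

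**Figure D4:**
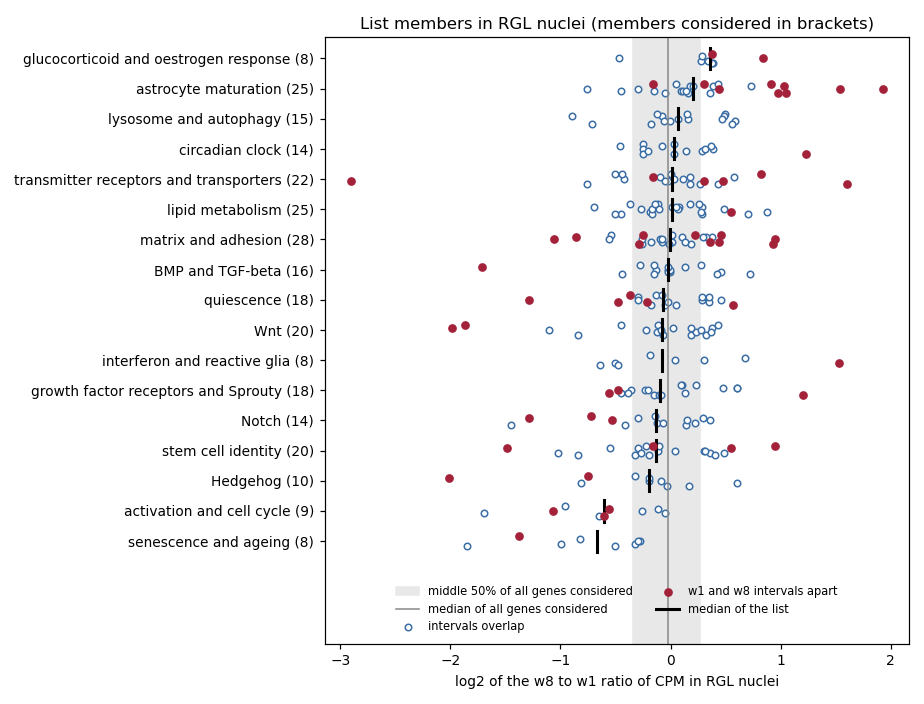
log2 of the ratio of the w8 to the w1 level in RGL nuclei (x axis) for the members of 17 gene lists (rows, with the number of members over 20 CPM). Black bars mark the list medians, filled points have Poisson intervals of w1 and w8 that lie apart, and the grey band holds the genes between the lower and upper quartile of all 7205; the medians run from -0.66 for senescence and ageing to 0.36 for glucocorticoid and oestrogen response.

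The quiescence list of 25 genes, which shares Hes5, had 18 members over the minimum and none that rose or fell in order by 1.5-fold. With intervals apart, 1 was higher and 4 were lower in w8, where all genes gave 3.26% and 3.04%. Foxo3, a transcription factor of stem cell maintenance, measured 157, 107, 110 and 233 CPM, and Apoe 730, 709, 680 and 647 CPM, an ordered decline of under 1.5-fold. Nfib and Nfix, nuclear factors I, were lower in w8 with intervals apart (1812, 1461, 1561 and 1399 CPM, and 294, 258, 274 and 210 CPM). Both fell in the other nuclei as well, Nfib from 4483 to 873 CPM.

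Of 13 genes of senescence and ageing, 8 were considered and 3 fell, beside 2.08% of all genes, with a median log2 ratio of -0.66. Abl1, a tyrosine kinase (chr2:31688376-31804227), measured 99.6, 84.1, 68.5 and 38.2 CPM (2.60-fold lower, 1.46 to 5.11), Sirt1, a deacetylase, 34.4, 29.6, 28.0 and 9.56 CPM and Lmnb1, a lamin whose loss marks aged cells, 28.3, 27.7, 17.7 and 15.9 CPM. The Sirt1 and Lmnb1 intervals overlapped. Huwe1, a ubiquitin ligase, declined in order by less, from 414 to 338 CPM. Abl1 moved from 77 to 50 CPM in OPCs and from 71 to 48 CPM in the other nuclei, and Lmnb1 from 90 to 14 CPM in the latter. The inhibitors Cdkn1a, Cdkn2a, Cdkn2b and Cdkn2c were under the minimum level.

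Matrix and adhesion genes, 28 of 32 considered, had 6 members higher and 4 lower in w8 with intervals apart (3.26% and 3.04% of all genes) and none that rose or fell in order by 1.5-fold. Tnc, tenascin C (chr4:63959785-64047015), dropped between w1 and w2 and changed little later, with 731, 426, 459 and 351 CPM. Males (732, 398 and 358 CPM in w1, w2 and w8) and females (774, 490 and 403 CPM in w1, w2 and w4) gave the same course. Bcan, brevican, measured 70.0, 95.8, 56.7 and 134 CPM and the integrin Itga6 156, 132, 144 and 86.1 CPM.

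Of 34 lipid genes, 25 were considered and 1 rose, beside 2.21% of all genes: Cpt1a, which brings fatty acids into mitochondria, with 24.4, 26.8, 33.1 and 44.6 CPM, on 14 UMIs in w8 and with intervals that overlapped. Among transmitter receptors and transporters, 22 of 33 were considered and only Grik4 rose, beside 2.21% of all genes. With intervals apart, 4 were higher and 2 lower in w8, where all genes gave 3.26% and 3.04%. Grik2 (512, 486, 481 and 711 CPM) and Gabra2 (77.4, 56.8, 99.4 and 137 CPM) were among the higher ones. The serotonin receptor Htr2c, with 71.3, 275, 47.9 and 0 CPM, had over 90% of its UMIs in 1 nucleus in each of the first 3 weeks. The median log2 ratio was within 0.07 of 0 for these 2 lists, lysosome and autophagy (15 of 20 considered) and the circadian clock (14 of 19), with no member of the last 2 rising or falling by the rule. In the clock list Npas2 was highest in w8 (23.0, 20.2, 7.36 and 54.2 CPM). Of 27 interferon and reactive glia genes, 8 were considered, none was ordered, and complement C4b was higher in w8 (14.4, 14.6, 10.3 and 41.4 CPM). Only 2 of 22 immediate early genes passed the minimum level and neither moved in order.

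The list of glucocorticoid and oestrogen response genes (tamoxifen is a ligand of the oestrogen receptor) had 8 of 18 members considered, none ordered, and a median log2 ratio of 0.36, which became -0.33 for w4 against w1. Zbtb16, a transcription factor gene induced by glucocorticoids (chr9:48654297-48836222), measured 96.1, 69.5, 24.3 and 172 CPM. Split by sex it measured 53.2, 40.7 and 211 CPM in male nuclei of w1, w2 and w8, and 225, 125 and 19.2 CPM in female nuclei of w1, w2 and w4. The level was lower in w2 than in w1 in both sexes, and the high male value of w8 and the low female value of w4 belong to different weeks. Fkbp5, which encodes a cochaperone of the glucocorticoid receptor and is induced by it, followed with 25.0, 27.9 and 65.1 CPM in males and 108, 64.1 and 10.9 CPM in females. In w1 and w2, where both sexes came from the same library, the intervals of male and female nuclei lay apart for both genes. Each sex is a few animals of a pool, so sex cannot be told apart from animal here. Tsc22d3, another target, stood at 11.7, 6.58, 11.8 and 47.8 CPM, under the minimum mean level. Per1 and Klf9, also such targets, had overlapping intervals between w1 and w8.

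**Figure D5:**
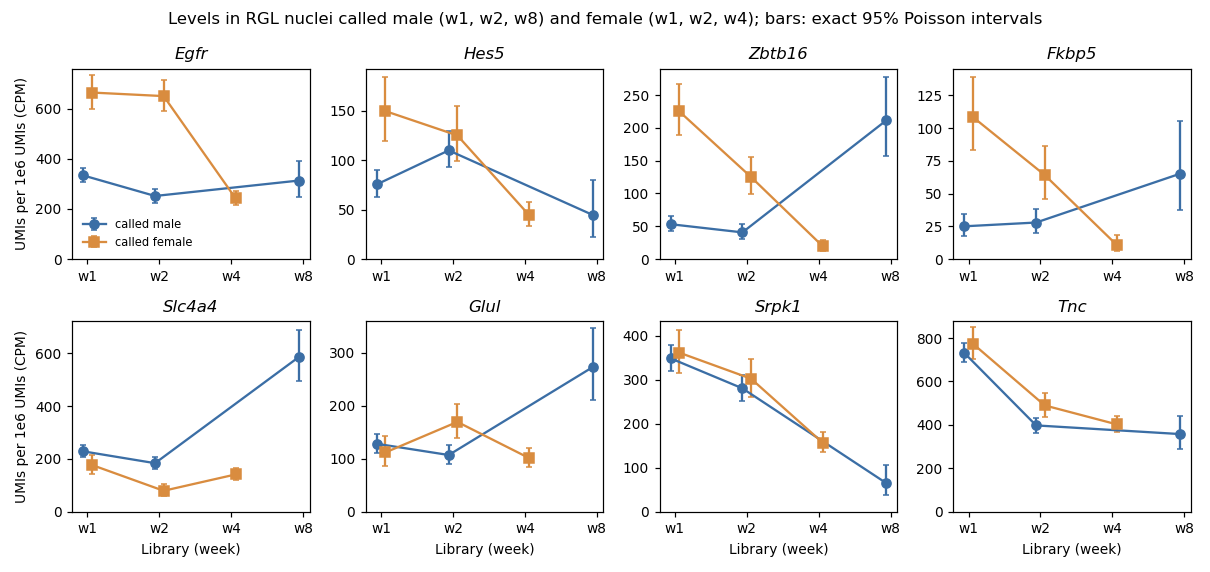
Level (y axis, UMIs per 1e6 UMIs, exact 95% Poisson intervals) of 8 genes in RGL nuclei called male (w1, w2 and w8) and female (w1, w2 and w4) over the libraries (x axis). Egfr, Zbtb16 and Fkbp5 are higher in female than in male nuclei of w1 and w2 and lowest in female nuclei of w4, whereas Srpk1 and Tnc fall alike in both.

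RNA of other cells was followed in the same nuclei. The summed level of mature granule cell markers in RGLs went from 1406 CPM in w1 to 1766 CPM in w8 while that of the other nuclei went from 2828 to 24539 CPM. None of its 7 considered members rose by the rule, but Grin2a (6.96, 9.87, 40.5 and 35.1 CPM) and Dgkh (9.57, 18.3, 39.8 and 38.2 CPM) stepped up between w2 and w4, as their levels elsewhere did. Neuroblast and immature neuron markers made 353, 442, 322 and 217 CPM in RGLs and 5719, 5560, 2909 and 1895 CPM elsewhere. Igfbpl1, a marker of immature neurons, measured 36.1, 80.3, 25.8 and 0 CPM in RGLs and 30.7, 82.7, 6.26 and 0 CPM in OPCs. A count of 0 in RGLs of w8 allows up to 9.56 CPM. Markers of OPCs, oligodendrocytes, NPCs, microglia and vascular cells each summed to under 270 CPM in RGLs of every week, and the 1 considered interneuron marker, Erbb4, is given above. Over granule cell markers, the median of the level in RGLs as a share of that in the other nuclei was 27.7%, 25.3%, 9.71% and 5.65%, with single markers from 0.642 to 75.8%. These medians used the 7, 9, 12 and 12 markers with at least 50 CPM in the other nuclei, so the weeks differ in marker set. The summed level of neuroblast and immature neuron markers gave another course, 6.17%, 7.94%, 11.1% and 11.4% of that in the other nuclei, so the share depended on the markers.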

How the data were processed

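Single-nucleus RNA-seq of 4 pooled libraries (w1, w2, w4 and w8, 1 per week) was used. The authors aligned the 10x Chromium reads with STARsolo 2.7.4a to GRCm38 (mm10), counted exonic and intronic UMIs and left out multi-mapped reads. Raw UMI counts per gene and barcode were deposited, and these counts are the basis of all levels. The authors removed nuclei of low feature number or quality, doublets and some nuclei of w4, and deposited log2 expression (counts over scran size factors, 1 added) with Louvain clusters and slingshot pseudo-time; the cluster names were used as given and no doublet caller was run. The removed nuclei of w4 formed clusters with mostly male calls, so the sex make-up of the kept w4 nuclei as a whole reflects that filter as well as the pool. Whether RGLs were among the removed nuclei was not tested.

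UMIs were summed over the RGL nuclei of each week and scaled to 1e6. Intervals are exact (95%): Poisson for levels, conditional for ratios, Clopper-Pearson for shares, all for counting error only. A sum under 3 UMIs was set to 3 for a fold. Genes with a mean of at least 20 CPM over the weeks were considered. The rule for named genes took the 12 largest ordered rises and falls with w1 and w8 intervals apart and at least 20 UMIs in at least 10 nuclei of the higher week, without sex-linked genes; the same among genes above all other nuclei; and members of gene lists, with every RGL and astrocyte marker. Thinning drew 2000 UMIs per nucleus. Nuclei were called male if UMIs of Ddx3y, Uty, Eif2s3y and Kdm5d outnumbered those of Xist with Tsix, and female in the opposite case. Rules and lists were chosen with earlier results of these data known. Procedures were tested on simulated counts. The Cre driver is not reported here. Alternatives were other scalings (edgeR 4.0.16 TMM, DESeq2 1.42.0 size factors, the deposited log2 values), thinning, weighting of nuclei, minimum level, fold, weeks left out, sex, subtraction of other RNA and pseudo-time. Python 3.11.15, scipy 1.17.1 and R 4.3.3 were used.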

Additional observations from a re-analysis of the deposited data

How the results depend on the processing

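With 1 library a week no setting has a test, and the depth of w8 (83 nuclei, 3 UMIs worth 9.56 CPM) limits every order. No paired analysis was possible because each week is a single library with no replicate number. The counts of rises and falls (159 and 150) moved to 1 and 1 with the deposited log2 expression, a scale on which 1.5-fold of mean log values is rarely reached, to 253 rises with thinned nuclei, to 566 and 246 with no minimum level, to 49 and 57 with at least 50 CPM and to 53 and 56 with a fold of 2. With 1 week left out, rises ran from 337 to 509 and falls from 208 to 1117: 509 rises without w8, 337 and 1117 without w1, 438 and 420 without w2, and 469 and 359 without w4, where an order of 3 weeks is easier to meet. Female nuclei gave 380 rises, subtraction of other RNA, by a share too large for some genes, 778 and 39, and the pseudo-time window 255 falls. Of the alternatives chosen after seeing the data, male nuclei of w1, w2 and w8 gave 611 and 394, female nuclei of w1, w2 and w4 406 and 524, leaving out the top nucleus of a gene 71 and 246 (1 nucleus is a larger part of the 83 nuclei of w8 than of the 486 of w1, so this lowers w8 by construction), and intervals apart 38 and 38.

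Among values of named genes, 421 moved by less than their interval under the alternatives listed in the methods, 60 moved by more and 11 reversed, with 107, 14 and 3 under those chosen after seeing the data. The value compared is the ratio of the last to the first week. Another minimum level or fold, or leaving out w2 or w4, cannot move it, and neither can the condition of intervals apart. Such values are among the 421 and 107 by construction, so these counts overstate how well the ratios hold. In female nuclei, of which w8 holds 10 with 39196 UMIs so that 3 UMIs are worth 76.5 CPM, log2 ratios came out reversed for Asic2 (0.12), Gm15478 (0.72), Gm10308 (0.83), Zfyve27 (0.83), Tipin (1.08), Csad (0.35), Veph1 (0.12), Gm26672 (0.31), Tbc1d31 (0.35) and Aig1 (-0.087). For the first 9 of these the value is the 3-UMI floor over a w1 level below it, so the sign was fixed by the floor and says nothing about the gene, and Aig1 had 4 UMIs. Under subtraction Kcnh7 came out at 2.87, the ratio of the 3-UMI floors of w8 and w1, which says nothing about the gene. Fam155a and Ptprd were also at or under the floor in both weeks, so their rise under subtraction was fixed in the same way. Female nuclei of w1, w2 and w4 reversed Wasf1 (-0.24), Setd8 (-0.10) and Tipin (0.12). The cause in the female series was not tested.

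The RGL share of nuclei was 15.2% in w1 and 6.54% in w4 over all barcodes with at least 1000 features, and 78.4%, 82.8%, 88.6% and 97.6% of RGL, NPC and astrocyte nuclei. The share with a cell cycle UMI was 73.5%, 72.2%, 68.3% and 62.7% without thinning and 20.0%, 18.2%, 17.4% and 18.1% for at least 2 UMIs. Granule cell markers had a median of 1183, 1130, 1444 and 1608 CPM per nucleus. With at least 2 more UMIs of one kind, the male share was 65.8% in w1 and 59.3% in w2.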

Other observations

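Single nuclei carried most of some genes. Htr2c, a serotonin receptor abundant in choroid plexus, had 164 UMIs in RGL nuclei of w1, 158 of them in 1 nucleus, 550 of 585 in w2 and 63 of 65 in w4, and no UMI in w8. Ttr, transthyretin, a main product of the choroid plexus, was spread more widely in w1 (127 nuclei, 82.2 CPM) and w4 (117 nuclei, 169 CPM) than in w2 (25 nuclei, 117 CPM) and w8 (4 nuclei, 15.9 CPM), and in w2 1 nucleus held 176 of its 250 UMIs.

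Ribosomal protein genes, 54 of 80 over the minimum level, summed to 1821, 2961, 2468 and 1399 CPM in RGLs and to 1457, 2184, 2054 and 947 CPM in OPCs of w1, w2, w4 and w8, with the highest sum in w2 in both classes. Genes of the mitochondrial genome made 173, 320, 168 and 47.8 CPM in RGLs and 222, 185, 138 and 44.6 CPM in OPCs. The median slingshot pseudo-time of RGL nuclei was 0.803, 1.40, 1.20 and 0.697, lowest in w8.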
